A study of Mus musculus with 117 samples.

Results

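Chondroitin sulfate proteoglycans and the tenascins that bind them were followed through every astrocyte and flow-through library of the series. The members were a list of 9 genes, matched by Entrez identifier to their mouse symbols, out of 27179 genes counted in each library. They are the lecticans Acan, Bcan, Ncan and Vcan, the membrane proteoglycans Cspg4, Cspg5 and Ptprz1, and the tenascins Tnc and Tnr. All 9 passed the filter on low counts in every comparison.

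Chondroitin sulfate proteoglycans are core proteins that carry chondroitin sulfate chains and, with hyaluronan, fill the space between neural cells. The lecticans bind hyaluronan at one end and tenascins at the other, so that tenascin R, link proteins and lecticans together build perineuronal nets, the coats around certain neurons. In the injured spinal cord these proteoglycans are best known as matrix that hinders the growth of axons, and tenascin C as a matrix protein of wounds and of development.

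RNA had been taken from mouse spinal cord in the RiboTag design, in which Cre recombinase switches on a ribosomal protein carrying the HA tag and an antibody then pulls down the tagged ribosomes. Astrocyte libraries hold the RNA pulled down, and flow-through libraries the RNA left in solution, so a flow-through library still contains astrocyte RNA that was not captured. In the Aldh1l1-CreERT2-RiboTag line, Cre acts in mature astrocytes after tamoxifen. Young adult females were uninjured (n = 4) or had a complete crush spinal cord injury (SCI) 2 d (n = 5), 5, 14, 28, 42 or 70 d earlier (n = 4 each). Males were added at 5 and 14 d (n = 4 each), and each mouse gave both kinds of library. In the 73.12 GFAP Cre-RiboTag line, called mGfap below, Cre has no drug control and also marks cells that used the Gfap promoter during development. In that line 5 females at 14 d after SCI and 3 males and 2 females, uninjured at postnatal day 63 (P63), gave both kinds of library. Uninjured pups and juveniles gave astrocyte libraries at P0 (4 males), P3 (2 females, 1 male), P7 (1 female, 2 males), P14 (3 females, 2 males), P21 and P35 (2 females and 2 males each). Injured tissue was a block of cord on both sides of the crush and included the lesion core. The lines differ in age and sex as well as in Cre, and the newborn and injured mGfap groups are of opposite sex, so these factors and the group cannot be told apart there.

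Libraries held 67253656 to 128400518 counted reads (astrocyte, 70 libraries) and 40710428 to 136008399 (flow-through, 47 libraries), and no 2 libraries had identical counts. All 10 astrocyte markers were present in every group, with a summed level of 53259 to 63344 CPM (read counts scaled to 1000000 per library) in uninjured Aldh1l1 astrocyte libraries against 1998 to 2429 in flow-through. Markers of other cells were at 0 in no group. The 8 myeloid markers summed to 51 to 110 CPM in uninjured astrocyte libraries, 1553 to 2720 at 2 d, 15778 to 20274 at 5 d and 1570 to 4834 at 70 d. The 7 oligodendrocyte markers summed to 1990 to 3480, 669 to 1342, 850 to 973 and 947 to 1044 in the same groups. The 8 neuron markers in flow-through fell from 6829 to 8023 CPM to 273 to 773 at 2 d. Their part in the results below was not tested. One newborn library stood apart: P0 replicate 3 held 7005 CPM of astrocyte markers against 15054 to 19308 in the other 3. Some P0 results of single members are given with and without it. The other P0 results, among them the lectican shares and the counts of pathway genes, include it.

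The start-site regions of Tnc, Cspg4 and Acan are printed because Tnc made the largest rise after injury in flow-through libraries, Cspg4 moved differently in the captured and the remaining RNA, and Acan was the member lowest in astrocyte libraries. Each window is the 250 bases before the annotated start and holds no annotated exon. Sequences are from RefSeq on GRCm38.p6, written 5′ to 3′ on the gene's own strand, with capitals marking matches on either strand to the GC box, with the letters GGGCGG, or the TATA box, spelled TATAAA.
Tnc, chr4:64047016-64047265, minus strand: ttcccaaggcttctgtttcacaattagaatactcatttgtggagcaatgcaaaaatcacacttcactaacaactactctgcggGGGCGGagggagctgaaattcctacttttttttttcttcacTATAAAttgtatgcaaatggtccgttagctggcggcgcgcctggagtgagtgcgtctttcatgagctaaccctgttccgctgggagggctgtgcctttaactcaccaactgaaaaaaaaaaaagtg
Cspg4, chr9:56864854-56865103, plus strand: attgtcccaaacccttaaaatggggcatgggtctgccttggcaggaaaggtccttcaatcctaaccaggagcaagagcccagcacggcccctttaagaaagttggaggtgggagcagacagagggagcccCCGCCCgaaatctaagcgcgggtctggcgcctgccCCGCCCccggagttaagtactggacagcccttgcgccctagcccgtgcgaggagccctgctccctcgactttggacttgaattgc
Acan, chr7:79052976-79053225, plus strand: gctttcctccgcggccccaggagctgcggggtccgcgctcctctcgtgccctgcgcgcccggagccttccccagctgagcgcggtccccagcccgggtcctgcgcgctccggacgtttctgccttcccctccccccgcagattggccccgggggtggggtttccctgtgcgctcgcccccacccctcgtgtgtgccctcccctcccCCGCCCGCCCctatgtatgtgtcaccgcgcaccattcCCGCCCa
The Tnc window held a GC box 167 to 162 bases before the start and a TATA box 126 to 121 bases before it, with 44.8% G and C. Tnc has a second annotated start, not printed, before which the same matches lie at 246 to 241 and 205 to 200 bases. The window of that start holds 79 bases of annotated exon. The Cspg4 window held GC boxes at 120 to 115 and 85 to 80 bases and had 60.4% G and C. The Acan window held 3, of which those at 44 to 39 and 40 to 35 bases overlap and the third lies at 7 to 2 bases, with 74.4% G and C. Of 32851 RefSeq promoters cut the same way, 32.7% held a GC box and 12.4% a TATA box. The letters TGANTCA (AP-1, in 6.75% of promoters) and TTCNNNGAA (STAT, 7.02%), searched on both strands, were in no window of the 8 members with an annotated promoter. All 250 bases of the Bcan and Vcan windows were annotated exon, as were 187 of Ptprz1, 40 of Tnr and 19 of Ncan. Tnr held no match to any of the 4 motifs.

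Uninjured Aldh1l1 astrocyte libraries held one lectican above all others. Compared per transcript length, as FPKM (CPM divided by exon length in kilobases), Bcan (brevican, the short lectican of the adult brain and cord) stood at 633 ± 50.3 (SD, n = 4), 11.0-fold over the next member. Cspg5 (neuroglycan C, a membrane proteoglycan) at 57.6 ± 3.19, Ncan (neurocan) at 48.1 ± 7.35 and Ptprz1 at 37.3 ± 8.61 followed, each overlapping its neighbour in that order. Ptprz1 is a receptor tyrosine phosphatase whose secreted form is phosphacan. Tnc was at 3.98 ± 0.409, Cspg4 (NG2, known from oligodendrocyte progenitors and pericytes) at 1.02 ± 0.164, Tnr at 0.724 ± 0.126, Vcan (versican) at 0.258 ± 0.0247 and Acan (aggrecan, the lectican of perineuronal nets) at 0.141 ± 0.0331. Of these, only Cspg4 and Tnr overlapped. Exon length decides the size of the Bcan lead: with all RefSeq models (6.054 kb against 3.808 kb of curated exon) Bcan was at 398 ± 31.6 FPKM, 6.91-fold over Cspg5. It also decides the place of Tnr, whose RefSeq models span 5.395 kb of exon in curated and 70.178 kb in all models. In uninjured flow-through the order was Cspg5 (33.9 ± 2.79) and Bcan (32.2 ± 4.11), which overlapped, then Acan (2.83 ± 0.671) and Ncan (2.67 ± 0.427), which overlapped, with Tnc last (0.434 ± 0.0157).

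Astrocyte and flow-through libraries of uninjured Aldh1l1 mice differed in 8 of the 9 members at an adjusted p under 0.01, the threshold for a call throughout (edgeR quasi-likelihood test, Benjamini-Hochberg over all genes tested), where 62.1% of 17595 genes were called. Bcan was 19.3-fold, Ptprz1 18.97-fold, Ncan 17.7-fold, Tnc 9.01-fold and Cspg5 1.67-fold higher in astrocyte libraries. Acan was 20.5-fold, Vcan 3.36-fold and Cspg4 1.97-fold higher in flow-through. Tnr did not pass the test (log2 difference -0.04 ± 0.22 (SE), adjusted p = 0.87). In mGfap mice all 9 were called (67.8% of genes), and there Vcan (log2 difference 0.67 ± 0.08), Cspg4 (1.25 ± 0.10) and Tnr (1.72 ± 0.24) were higher in the astrocyte library, opposite in sign or call to the Aldh1l1 line.

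Bcan had the deepest fall of the 9 members in astrocyte libraries at 2 and 5 d after SCI. Its level was 2244, 2262, 2485 and 2644 CPM in the 4 uninjured astrocyte libraries and 171, 184, 145, 167 and 173 CPM in the 5 libraries at 2 d. It was 238, 167, 169 and 264 CPM at 5 d and 734, 658, 734 and 643 at 14 d. By the end it had come back to 1162, 1089, 1168 and 1128 at 70 d. Every injured library at these times was below every uninjured one, and the groups did not overlap. The fall was 14.2-fold at 2 d (log2 change -3.83 ± 0.12, adjusted p = 5.6e-21), 11.5-fold at 5 d, 3.55-fold at 14 d, 2.87-fold at 28 d, 2.63-fold at 42 d and 2.08-fold at 70 d (-1.06 ± 0.11, adjusted p = 7.8e-09). From 5 to 14 d it rose 3.25-fold (1.70 ± 0.12, adjusted p = 1.2e-11). In bulk libraries fewer cells of a type and less RNA per cell cannot be told apart. The astrocyte marker sum in the same libraries was 23636 to 32622 CPM at 2 d and 24968 to 38558 at 5 d against 53259 to 63344 uninjured. The p-values weigh each change against a spread between libraries that was estimated over all groups of a fit. In flow-through, Bcan was 107 to 139 CPM uninjured, 60.9 to 115 at 2 d and 155 to 216 at 5 d, a fall of 1.41-fold at 2 d and a rise of 1.51-fold at 5 d. Both of these calls were lost when any 1 of several libraries was left out. Without any one of 2 d replicates 1, 2 or 5 or uninjured replicates 3 or 4 the 2 d log2 change was -0.48 to -0.39 (adjusted p = 0.014 to 0.029). Without 5 d replicate 1 or uninjured replicates 1 or 2 the 5 d change was 0.47 to 0.55 (adjusted p = 0.013 to 0.028). The 2 d call was also lost with the 2 groups fitted alone (-0.58, adjusted p = 0.014), and the 5 d call with DESeq2 (0.45, adjusted p = 0.017). The astrocyte change minus the flow-through change was called at all 6 times, from -3.91 ± 0.22 at 5 d to -0.88 ± 0.21 at 70 d. At 5 d the difference in level between the libraries of the same mice was no longer called (log2 0.14 ± 0.16, adjusted p = 0.44).

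Ncan, which marks the developing matrix, did not follow Bcan. Its levels in astrocyte libraries were 285, 318, 398 and 379 CPM uninjured, 380, 386, 348, 385 and 330 at 2 d, and 448, 384, 364 and 519 at 5 d. Those 3 groups overlapped, and neither change passed the test (0.10 ± 0.11, adjusted p = 0.45, and 0.31 ± 0.12, adjusted p = 0.022). The 5 d change passed it without 5 d replicate 3 (0.38, adjusted p = 0.0083) or uninjured replicate 3 (0.40, adjusted p = 0.0063). The 14 d change (-0.33, adjusted p = 0.018) passed without 14 d replicate 1 (-0.40, adjusted p = 0.0074) or uninjured replicate 1 (-0.41, adjusted p = 0.0044). Later it fell, 2.24-fold at 28 d, 2.38-fold at 42 d and 3.02-fold at 70 d (-1.59 ± 0.12, adjusted p = 8.2e-12), when the libraries held 112, 141, 92.0 and 105 CPM. In flow-through Ncan was 15.8, 18.1, 23.1 and 19.4 CPM uninjured and 140, 169, 182, 140 and 107 CPM at 2 d, without overlap, a rise of 7.88-fold (2.98 ± 0.18, adjusted p = 1.0e-14). The flow-through level came back to 21.2, 25.3, 21.1 and 23.4 CPM by 70 d, a change that did not pass the test (0.27 ± 0.17). Its 42 d call in flow-through (0.68, adjusted p = 0.0011) was lost without 42 d replicate 3 (0.52, adjusted p = 0.011). The astrocyte change was below the flow-through change at every time, by -2.69 ± 0.20 at 2 d and -1.81 ± 0.21 at 70 d.

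The balance of the lecticans changed with these levels. Of the summed FPKM of the 4 lecticans in astrocyte libraries, Bcan made up 92.9% ± 0.630 (SD, n = 4) and Ncan 7.04% uninjured, and 44.4% ± 1.98 and 51.4% at 2 d (n = 5). At 5 d these shares were 47.0% and 51.6%, at 14 d 82.0% and 17.6%, and at 70 d 94.9% and 4.99%. With exon lengths over all RefSeq models the Bcan share was 89.2% uninjured, and 33.6%, 35.9%, 74.2% and 92.1% at these 4 times in turn. The sum itself, over curated exons, was 681 ± 56.7 FPKM uninjured, 99.3 at 2 d and 314.6 ± 7.17 at 70 d.

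**Figure D1:**
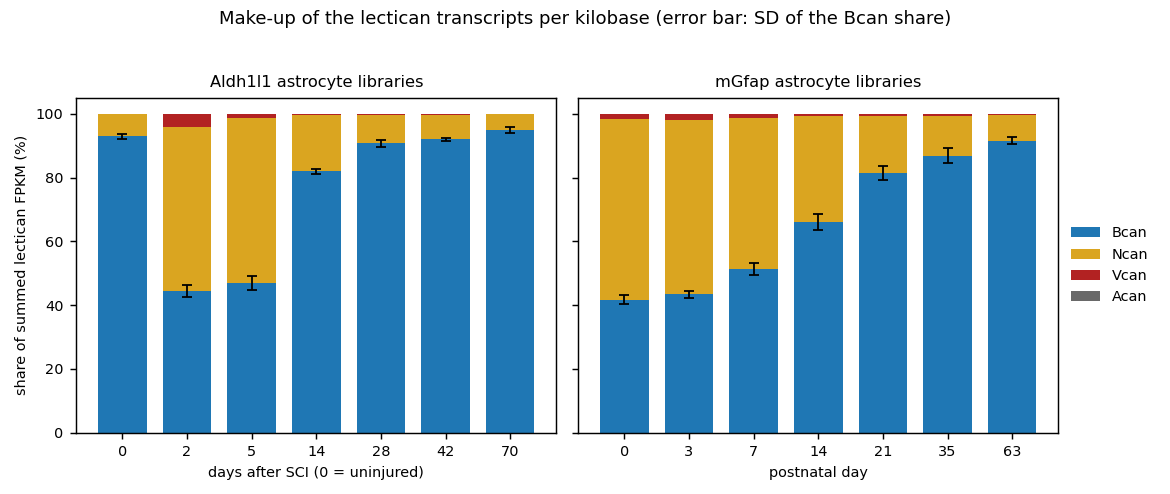
Share of each lectican in the summed FPKM of Acan, Bcan, Ncan and Vcan, in percent, by group of astrocyte libraries of the Aldh1l1 time course and the mGfap ages; bars are stacked group means and error bars the SD of the Bcan share. Bcan holds 92.9% uninjured and 44.4% at 2 d, and 41.7% at P0 and 91.6% at P63.

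Vcan, the large lectican of migrating and provisional matrix, rose in both kinds of library. Astrocyte libraries held 3.98, 3.26, 4.05 and 3.88 CPM uninjured, 57.2, 54.7, 56.4, 58.4 and 73.2 at 2 d and 23.6, 20.8, 19.6 and 27.3 at 5 d. Still later they held 7.23, 5.45, 4.86 and 5.63 at 70 d. Every injured library was above every uninjured one. The rise was 16.0-fold at 2 d (4.00 ± 0.19, adjusted p = 6.3e-17), 2.58 ± 0.18 on the log2 scale at 5 d, 3.29-fold at 14 d, 2.74-fold at 28 d, 2.68-fold at 42 d and 1.56-fold at 70 d (0.64 ± 0.18, adjusted p = 0.0029). The 70 d call was lost without 70 d replicate 1 (0.51, adjusted p = 0.019) or uninjured replicate 2 (0.57, adjusted p = 0.013). Flow-through held 10.2, 15.2, 13.7 and 11.0 CPM uninjured and 141, 95.8, 111, 63.3 and 145 at 2 d, a rise of 9.01-fold (3.17 ± 0.18, adjusted p = 2.9e-15) that was 1.49-fold at 70 d. The 70 d flow-through call (0.58, adjusted p = 0.0056) was lost without any one of 70 d replicates 1, 3 or 4 or uninjured replicates 1 or 4 (0.49 to 0.59, adjusted p = 0.011 to 0.027). Vcan was the 1 member whose astrocyte change exceeded its flow-through change at a call, at 2 d (1.01 ± 0.23, adjusted p = 0.00019), where the median over all genes of the same difference was 0.30. At 2 d it was still lower in astrocyte than in flow-through libraries (-0.94, adjusted p = 0.0010), a call lost without mouse 1 (-0.80, adjusted p = 0.011) or mouse 3 (-0.92, adjusted p = 0.011). Fibroblast markers, which flow-through holds at 185 to 421 CPM uninjured and 1191 to 8114 at 2 d, were at 242 to 594 CPM in uninjured astrocyte libraries. They stood there at 365 to 571 CPM at 2 d, overlapping the uninjured range, and at 1035 to 1181 CPM at 5 d. Myeloid markers in astrocyte libraries summed to 51 to 110 CPM uninjured, 1553 to 2720 at 2 d and 15778 to 20274 at 5 d. The part of fibroblasts or myeloid cells in the Vcan rise was not tested.

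Acan was near the floor of the astrocyte libraries, at 0.727 to 1.31 CPM uninjured and 0 to 0.853 CPM in injured females. Its fall was called at 42 d (-2.03 ± 0.60, adjusted p = 0.0054). That call was lost without 42 d replicate 2 (-2.05, adjusted p = 0.013) or 3 (-2.11, adjusted p = 0.010) or uninjured replicate 2 (-1.97, adjusted p = 0.012) or 3 (-1.95, adjusted p = 0.013). The falls at 14 d (-1.14, adjusted p = 0.094), 28 d (-1.54, adjusted p = 0.028) and 70 d (-1.49, adjusted p = 0.032) did not pass. With edgeR's fit without legacy all of these passed, at 14 d (adjusted p = 0.0067), 28 d and 70 d (adjusted p = 0.0017). The 28 d fall also passed with DESeq2. In flow-through Acan was 14.87, 20.99, 25.76 and 25.85 CPM uninjured and 4.62, 4.55, 5.55 and 4.19 CPM at 42 d, without overlap and 4.56-fold lower (-2.19 ± 0.35, adjusted p = 4.7e-06). It was also lower in flow-through at 14 d (2.54-fold), 28 d and 70 d. Neuron markers summed to 6829 to 8023 CPM in uninjured flow-through and 1131 to 1477 at 42 d. In astrocyte libraries they summed to 454 to 540 CPM uninjured and 97 to 108 at 42 d, and their part was not tested. At 2 d flow-through held 20.0, 89.7, 34.2, 16.2 and 45.8 CPM of Acan, which overlapped the uninjured values. The higher call there (0.94 ± 0.32, adjusted p = 0.0098) was lost without replicate 2 (0.44, adjusted p = 0.11). It was also lost without 5 other libraries taken singly (2 d replicate 5 and each uninjured one, 0.80 to 1.03, adjusted p = 0.013 to 0.043). With the replicate number as a block, which joins different mice here, it was 0.78 (adjusted p = 0.044). The difference of the astrocyte and flow-through changes at 2 d (-1.71 ± 0.54, adjusted p = 0.0056) was likewise lost without mouse 2 (-1.22, adjusted p = 0.041), mouse 3 or uninjured mice 1, 2 or 3 (-1.71 to -1.62, adjusted p = 0.011 to 0.019).

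Tnc rose in both kinds of library. Astrocyte libraries held 29.2, 32.9, 29.9 and 25.5 CPM uninjured, 278, 291, 315, 291 and 315 at 2 d and 134, 148, 142 and 187 at 5 d. The last group held 44.5, 46.2, 34.0 and 37.4 at 70 d. Every injured library lay above every uninjured one. The rise was 10.2-fold at 2 d (3.36 ± 0.11, adjusted p = 4.8e-20), 5.18-fold at 5 d, 2.16-fold at 14 d, 2.02-fold at 28 d, 1.82-fold at 42 d and 1.41-fold at 70 d (0.49 ± 0.11, adjusted p = 0.00024). Flow-through held 3.13, 3.37, 3.16 and 3.13 CPM uninjured, 51.5, 169, 93.1, 81.7 and 198 at 2 d and 94.7, 137, 126 and 104 at 5 d. The last group held 6.77, 11.5, 9.51 and 12.2 at 70 d. That is a rise of 37.8-fold at 2 d (5.24 ± 0.30, adjusted p = 5.5e-15), 38.1-fold at 5 d and 3.16-fold at 70 d, without overlap. The flow-through change exceeded the astrocyte change at all 6 times, by 1.70 ± 0.27 (log2) at 2 d and 2.67 ± 0.29 at 5 d. The 42 d difference (-1.02, adjusted p = 0.0041) was lost without 42 d mouse 1 or 3 or uninjured mouse 1, 2 or 3 (-1.02 to -0.91, adjusted p = 0.011 to 0.023). The 70 d difference (-1.12, adjusted p = 0.0022) was lost without 70 d mouse 4 (-0.97, adjusted p = 0.018). The astrocyte level of Tnc exceeded that in flow-through 9.01-fold uninjured, 2.41-fold at 2 d and 1.22-fold at 5 d. The 5 d difference was not called (0.28 ± 0.12, adjusted p = 0.051). The 2 d difference (1.27, adjusted p = 0.0030) was lost without mouse 3 or 4 (1.18, adjusted p = 0.015 to 0.020).

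**Figure D2:**
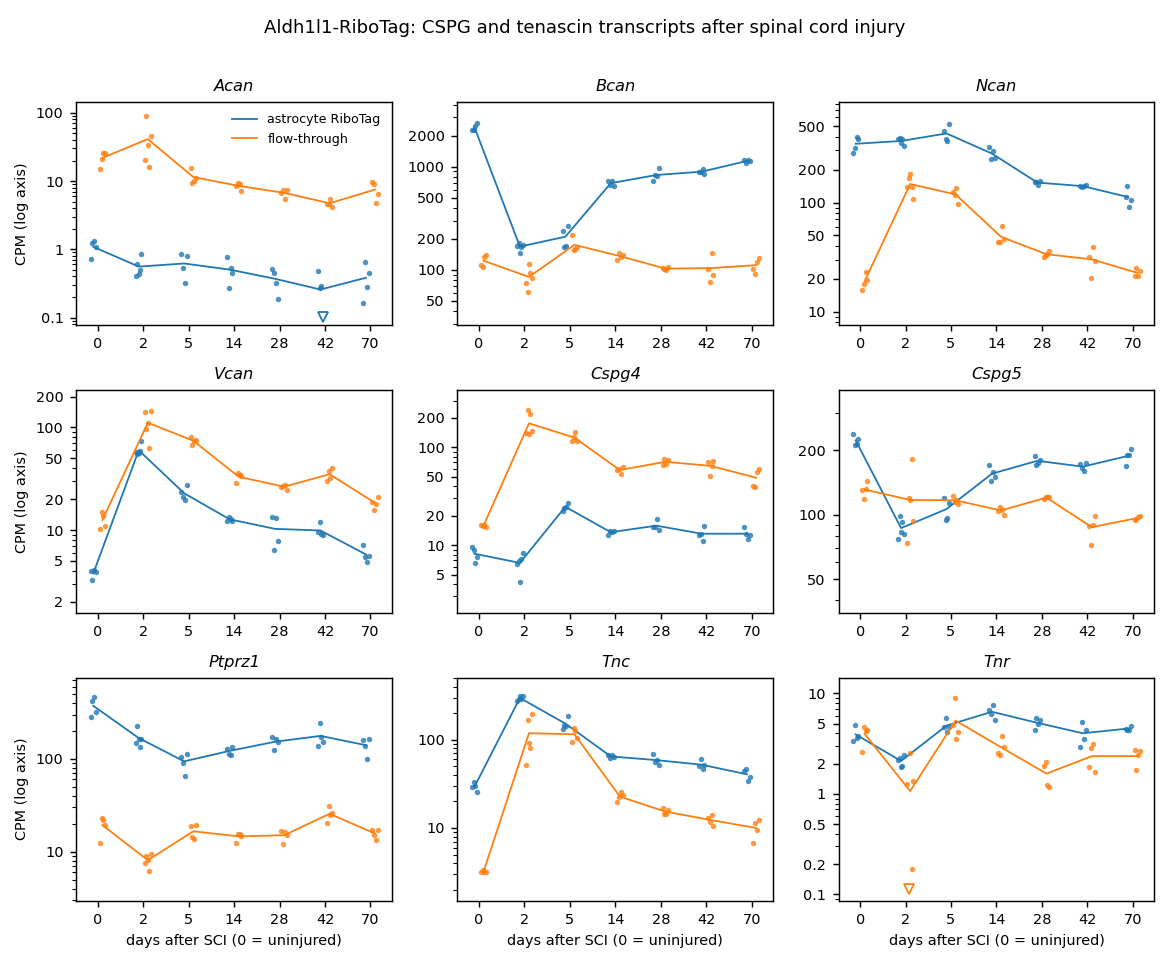
Level of each member in CPM (log axis) against days after SCI for the Aldh1l1 line; points are libraries, lines join group means for astrocyte (blue) and flow-through (orange) libraries, and open triangles mark libraries at 0. Bcan falls from 2244 to 2644 CPM to 145 to 184 CPM at 2 d in astrocyte libraries, while Vcan and Tnc rise in both kinds.

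Tnr, the tenascin of oligodendrocyte lineage cells and perineuronal nets, was lower at 2 d in both kinds of library. Astrocyte libraries held 3.35 to 4.89 CPM uninjured and 1.85 to 2.41 CPM at 2 d, which did not overlap and was 1.82-fold lower (-0.87 ± 0.16, adjusted p = 2.0e-05). At 14 d they held 6.86, 6.17, 7.74 and 5.45 CPM, 1.65-fold higher (0.72 ± 0.17, adjusted p = 0.00048), again without overlap. At 5, 28, 42 and 70 d no change was called (0.07 to 0.40). In flow-through it was 3.58-fold lower at 2 d (-1.84 ± 0.55, adjusted p = 0.0038), with 1 library at 0, and not called later. Fitted on those 2 groups alone, the 2 d change was -1.95 (adjusted p = 0.089). The 28 d change in flow-through (-1.32, adjusted p = 0.051) passed with edgeR's fit without legacy and with its 2 groups fitted alone (adjusted p = 0.00020 to 0.0023). The difference of the 2 d changes did not pass (1.15, adjusted p = 0.077) but did without mouse 3 (1.78, adjusted p = 0.0058). That of the 14 d changes (1.27, adjusted p = 0.095) passed with the fit without legacy (adjusted p = 0.0051). That of the 28 d changes (1.77, adjusted p = 0.015) passed with DESeq2 and with the fit without legacy. In level, Tnr was above flow-through in astrocyte libraries at 14, 28 and 70 d, the last call lost without any one of the 4 mice (0.75 to 0.94, adjusted p = 0.011 to 0.022).

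Cspg4 was higher from 2 d in flow-through and from 5 d in astrocyte libraries. In astrocyte libraries it was 9.50, 9.01, 6.61 and 7.62 CPM uninjured, 6.43, 6.82, 4.25, 7.21 and 8.26 at 2 d, and 22.6, 24.2, 24.6 and 27.2 at 5 d. The 2 d values overlapped the uninjured ones (-0.30 ± 0.14, adjusted p = 0.057), and the 5 d values lay above all of them, 3.00-fold higher (1.59 ± 0.15, adjusted p = 1.6e-10). The rise stayed between 1.63-fold and 1.95-fold from 14 to 70 d. In flow-through it was 15.9, 15.8, 16.2 and 15.4 CPM uninjured, 138, 241, 138, 216 and 146 at 2 d and 116, 126, 142 and 117 at 5 d. By the end it was 40.5, 39.1, 56.0 and 59.8 at 70 d. Every injured flow-through library was above the uninjured ones, by 11.3-fold at 2 d (3.50 ± 0.17, adjusted p = 2.6e-16) and 3.12-fold at 70 d. The astrocyte change was lower than the flow-through change by -3.61 ± 0.21 at 2 d and by -0.88 to -1.27 at the later times. The 70 d call (-0.88, adjusted p = 0.0012) was lost without mouse 3 (-0.77, adjusted p = 0.012) or mouse 4 (-0.75, adjusted p = 0.013). At 2 d Cspg4 was 27.8-fold higher in flow-through. The 8 markers of oligodendrocyte progenitors summed to 766 to 792 CPM in uninjured flow-through, 405 to 736 at 2 d and 1109 to 1350 at 5 d. In astrocyte libraries they summed to 1308 to 1710, 796 to 985 and 692 to 787 CPM at the same times. Pericyte markers, 4 genes, summed to 25 to 34 CPM in uninjured flow-through and 32 to 48 at 2 d. In astrocyte libraries they summed to 78 to 109 CPM uninjured, where 2 of the 4 genes averaged over 1 CPM. They stood there at 11 to 28 CPM at 2 d and 42 to 63 at 5 d. The part of either cell type was not tested.

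Cspg5 and Ptprz1, both abundant in uninjured astrocyte libraries, fell. Cspg5 was 213 to 240 CPM uninjured, 77.1 to 99.3 at 2 d, 94.6 to 120 at 5 d and 170 to 204 at 70 d. At no time did an injured library reach the lowest uninjured one. The fall was 2.54-fold at 2 d (-1.35 ± 0.08, adjusted p = 9.1e-15), 2.10-fold at 5 d and not called at 70 d (-0.21, adjusted p = 0.032). Its 28 d call (-0.30, adjusted p = 0.0035) was lost without 28 d replicate 2 or 3 or uninjured replicate 1 (-0.29 to -0.27, adjusted p = 0.011 to 0.014). Ptprz1 was 280, 420, 468 and 323 CPM uninjured, 150, 227, 164, 133 and 163 at 2 d and 106, 91.3, 65.1 and 114 at 5 d. By the end it was 161, 136, 99.9 and 164 at 70 d. No injured library reached the uninjured range. The fall was 2.21-fold at 2 d, 3.98-fold at 5 d (-1.99 ± 0.20, adjusted p = 2.1e-09) and 2.61-fold at 70 d. In flow-through Cspg5 was called at 42 d alone (-0.56, adjusted p = 0.0032), a call lost without uninjured replicate 4 (-0.52, adjusted p = 0.012). Ptprz1 was called there at 2 d (2.34-fold lower, -1.23 ± 0.16, adjusted p = 1.1e-07). Ptprz1 in flow-through passed the test also at 14 d (-0.54, adjusted p = 0.0060) and 28 d (-0.53, adjusted p = 0.0060) when uninjured replicate 1 was left out, against -0.38 and -0.37 (adjusted p = 0.060 and 0.061) with all. The astrocyte change of Cspg5 was below that in flow-through at 2 d (-1.03 ± 0.17) and 5 d (-0.77 ± 0.18), and that of Ptprz1 at 5 d (-1.65 ± 0.26) and every later time. The 28 d difference of Ptprz1 (-0.84, adjusted p = 0.0074) was lost without any one of the 4 mice at 28 d or uninjured mouse 1, 2 or 3 (-0.87 to -0.79, adjusted p = 0.011 to 0.021). In level, the difference of Cspg5 between astrocyte and flow-through libraries at 5 d did not pass the test (-0.26, adjusted p = 0.016), and passed with the mouse as a block (-0.26, adjusted p = 0.00085).

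Counted together against uninjured, 6, 6, 7, 7, 8 and 6 of the 9 members were called in astrocyte libraries, in the order of the 6 times from 2 to 70 d, where 60.1%, 56.8%, 47.3%, 41.9%, 43.3% and 45.3% of 18205 genes were. In flow-through the counts were 8, 5, 5, 5, 6 and 4, with 65.6%, 49.6%, 44.1%, 48.9%, 44.6% and 37.6% of 19207 genes called. Of the differences between the changes in the 2 kinds of library 7, 6, 5, 5, 5 and 5 were called, against 50.7%, 28.5%, 24.5%, 28.4%, 23.3% and 17.7% of 19640 genes. The medians of these differences over all genes were 0.30, 0.19, 0.13, 0.10, 0.04 and 0.07. From 2 d on, levels in astrocyte and flow-through libraries differed in 7, 5, 9, 9, 8 and 9 members, where 55.7%, 64.4%, 62.4%, 64.4%, 46.8% and 45.7% of genes were called. Between time points, 6 members changed from 2 to 5 d (41.4% of genes), 6 from 5 to 14 d (25.3%) and 5 from 14 to 70 d (29.5%). From 2 to 5 d Vcan, Tnc and Ptprz1 fell while Cspg4 (3.70-fold), Tnr and Cspg5 rose. The Cspg5 call (0.28, adjusted p = 0.0046) was lost without any one of 2 d replicates 1, 3 or 5 or 5 d replicates 1 or 4 (0.21 to 0.26, adjusted p = 0.012 to 0.037) and with a replicate block (0.25, adjusted p = 0.018). The Bcan step (0.30, adjusted p = 0.019) passed without 5 d replicate 2 (0.40, adjusted p = 0.0029) or 3 (0.39, adjusted p = 0.0036). From 14 to 70 d Ncan fell by 1.27 and Vcan by 1.08 on the log2 scale, Bcan rose by 0.77, and Tnc fell by 0.62. Cspg5 rose by 0.33, a call lost without 14 d replicate 2 (0.29, adjusted p = 0.014) or 70 d replicate 4 (0.29, adjusted p = 0.010). Between males and females at 5 and 14 d 0 of the 9 members were called by edgeR, and 0 had an unadjusted p under 0.05. Of all genes, 0.0510% of 17639 genes, 9 in all, were.

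With age, Ncan, Tnc and Vcan fell in astrocyte libraries of the mGfap line. Ncan was 3179, 3544, 1464 and 3704 CPM at P0, 4844, 3508 and 3310 at P3, 3351, 3044 and 3395 at P7, 2008 to 2648 at P14, 902, 1095, 992 and 758 at P21, 356 to 666 at P35 and 333, 294, 283, 322 and 361 at P63. All libraries up to P21 were above all at P63, by 9.37-fold at P0 (3.23 ± 0.20), 12.1-fold at P3, 10.2-fold at P7, 7.59-fold at P14 and 2.92-fold at P21. Tnc was 452, 690, 229 and 587 CPM at P0, 404, 400 and 547 at P3, 300 to 356 at P7, 104 to 166 at P14, 79.0 to 131 at P21 and 32.7 to 46.9 at P63. It was 12.9-fold over P63 at P0 (3.69 ± 0.23), 11.7-fold at P3, 8.42-fold at P7 and 2.59-fold at P21, and at P35 the groups overlapped. Vcan was 91.6 to 256 CPM at P0, 246 to 301 at P3 and 31.2 to 40.1 at P63, higher by 5.10-fold at P0 and 7.70-fold at P3 (2.94 ± 0.19) and still called at P35 (0.76, adjusted p = 0.0072). That last call was lost without P35 replicate 1, 3 or 4 or P63 replicate 1, 2, 3 or 4 (0.65 to 0.81, adjusted p = 0.013 to 0.036).

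Bcan took the other direction, from 1226, 1354, 624 and 1380 CPM at P0 to 2302 to 2672 at P14 and 1861 to 2074 at P63. It was lower at P0 than at P63 (-0.77, adjusted p = 0.00010) and rose from P0 to P7 (0.70, adjusted p = 0.0027), a call lost without P7 replicate 2 (0.69, adjusted p = 0.012). Without P0 replicate 3 that rise was 0.50 (adjusted p = 0.0019). With the fall of Ncan the lectican balance turned over. Ncan and Bcan made up 56.7% and 41.7% of summed lectican FPKM at P0 and 7.93% and 91.6% at P63. Over all models the Bcan share was 31.1% at P0 and 87.3% at P63. The sum was 728 FPKM at P0, 1009 at P14 and 562.5 at P63. Tnr was 0.108 to 6.82 CPM at P0, 37.4 to 49.5 at P14, 31.0 to 83.2 at P21 and 8.54 to 21.1 at P63. It was 4.08-fold lower at P0 than at P63 (-2.03, adjusted p = 0.0025). The higher Tnr levels at P14 and P21 did not pass edgeR's test (1.59, adjusted p = 0.013, and 1.84, adjusted p = 0.014), though their libraries lay above those of P63. Both passed with DESeq2 (adjusted p = 0.0072 and 0.0056) and with edgeR's fit without legacy (adjusted p = 0.0011 and 0.0013). Cspg4 peaked at P14 (52.8 to 73.4 CPM against 28.1 to 35.7 at P63; 0.99, adjusted p = 5.8e-06). Oligodendrocyte progenitor markers were also high then (2182 to 2851 CPM at P14 and 2390 to 2518 at P21 against 1519 to 1816 at P63); their part was not tested. Its P21 call (0.60, adjusted p = 0.0071) was lost with a replicate block (0.54, adjusted p = 0.013) and without P21 replicate 1, 2 or 3 or P63 replicate 1, 2, 4 or 5 (0.52 to 0.62, adjusted p = 0.012 to 0.040). Cspg5 was 415 to 510 CPM at P7 and 444 to 509 at P14 against 226 to 278 at P63. Ptprz1 was 690 to 872 CPM at P3, 151 to 215 at P14 and 292 to 494 at P63, so that P14 was the lowest age (-1.05 against P63, with P21 above P14 by 1.32).

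Schwann cell markers (4 genes) summed to 6488 to 20049 CPM at P0 and 15642 to 16976 at P7 against 1009 to 1997 at P63, and fibroblast markers to 3967 to 9627 CPM at P0 against 158 to 279; their part in the age results was not tested. Without P0 replicate 3, Ncan was 3.43, Tnc 3.90, Vcan 2.54, Ptprz1 1.07, Bcan -0.59 and Tnr -1.65 (log2, P0 against P63), all called. Acan became called without it (-1.25, adjusted p = 0.0084, against -1.64, adjusted p = 0.027, with it). Tnr without P0 replicate 1 was -2.62. Ptprz1 at P0 (0.83, adjusted p = 0.0057) was lost without P0 replicate 1, 2 or 4 or P63 replicate 1, 3 or 4 (0.67 to 0.81, adjusted p = 0.013 to 0.032) and with labelled sex as a covariate (0.78, adjusted p = 0.013). At P3 (0.99, adjusted p = 0.0031) it was lost without P3 replicate 1 (0.85, adjusted p = 0.024). Cspg5 at P0 (-0.39, adjusted p = 0.049) was called without P0 replicate 4 (-0.60, adjusted p = 0.0041). P35 replicate 1 held 3823 CPM of neuron markers against 493 to 718 in the other 3 and 13.2 CPM of Acan against 3.18 to 5.43. Without it Ncan at P35 was called (0.91, adjusted p = 0.0040, against 0.76, adjusted p = 0.016). Of the 9 members 6, 4, 4, 6, 4 and 1 were called at P0, P3, P7, P14, P21 and P35, where 50.2%, 39.9%, 27.6%, 26.3%, 9.22% and 2.40% of 18041 genes were. Between ages, the counts were 2 from P0 to P7 (20.1%), 4 from P7 to P14 (18.8%) and 3 from P14 to P21 (23.1%). From P0 to P7, Tnc was called without P0 replicate 3 (-0.85, adjusted p = 0.0022, against -0.62, adjusted p = 0.062) and Tnr without P0 replicate 1 (2.23, adjusted p = 0.0083, against 1.65, adjusted p = 0.033).

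**Figure D3:**
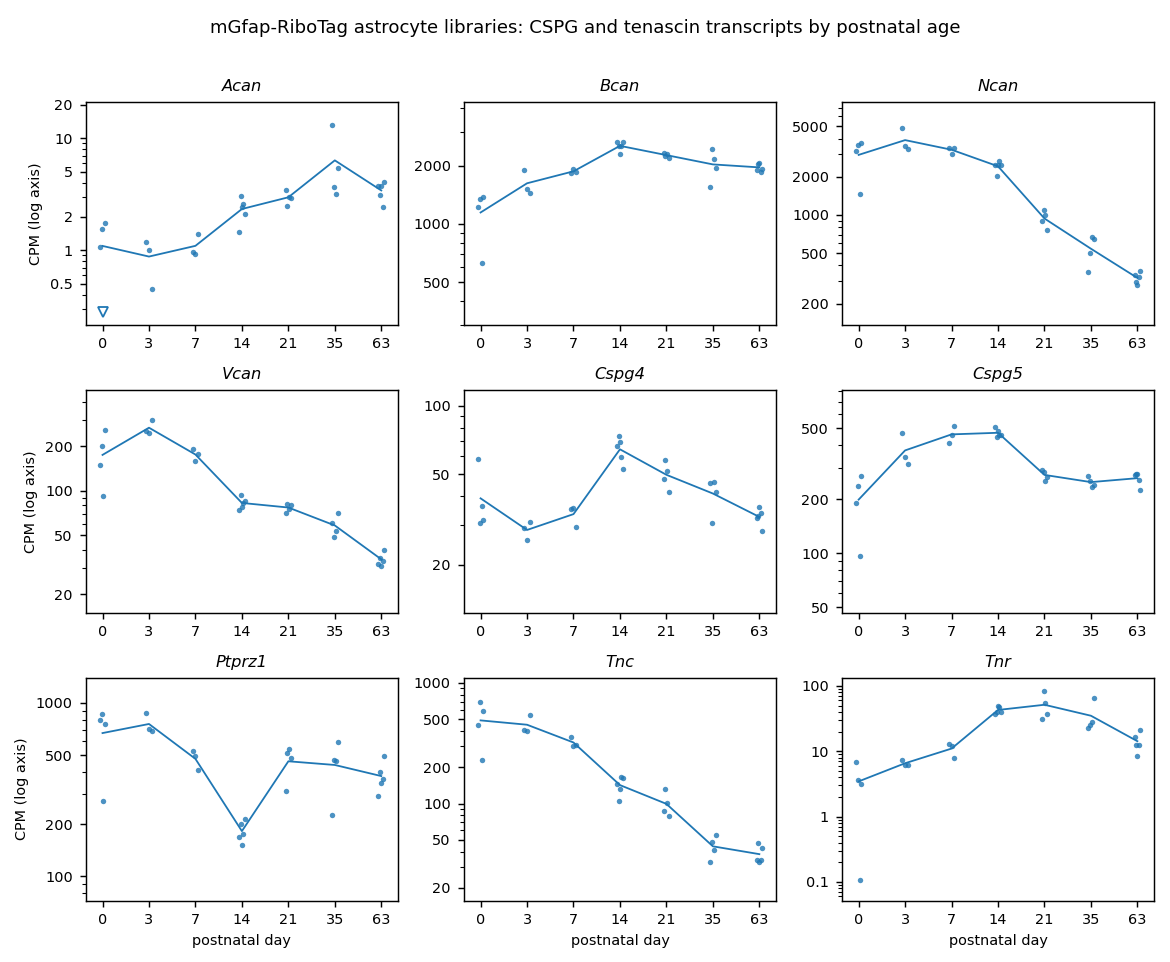
Level of each member in CPM (log axis) against postnatal age for mGfap astrocyte libraries; points are libraries, lines join group means, and the open triangle marks a library at 0. Ncan falls from 1464 to 3704 CPM at P0 to 283 to 361 CPM at P63.

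At 14 d after SCI, mGfap astrocyte libraries held less Ncan, Tnc, Ptprz1 and Vcan than newborn ones. The injured libraries held 138 to 203 CPM of Ncan and 60.9 to 81.7 CPM of Tnc, all below every P0 library, 17.6-fold (-4.14 ± 0.29, adjusted p = 4.4e-06) and 6.68-fold (-2.74 ± 0.28, adjusted p = 3.4e-05) lower. Ptprz1 (-2.24) and Vcan (-1.12) were lower and Cspg4 (0.82) higher, so that 5 members were called against 35.7% of 16955 genes. The Vcan call (adjusted p = 0.0035) was lost with a replicate block (-1.05, adjusted p = 0.024) and without injured replicate 2 or P0 replicate 2 or 4 (-1.07 to -0.88, adjusted p = 0.010 to 0.013). The Cspg4 call (adjusted p = 0.0076) was lost with the block (0.85, adjusted p = 0.014) and without injured replicate 1, 3, 4 or 5 or P0 replicate 2, 3 or 4 (0.72 to 0.86, adjusted p = 0.012 to 0.026). Without P0 replicate 3, Acan (2.24, adjusted p = 0.0023), Bcan (-0.85, adjusted p = 0.0021) and Tnr (2.20, adjusted p = 0.00042) were called, against 2.65, -0.64 and 2.60 with it, which did not pass. Ncan (-4.37), Tnc (-2.98), Ptprz1 (-2.50) and Vcan (-1.33) stayed called without that library.

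**Figure D4:**
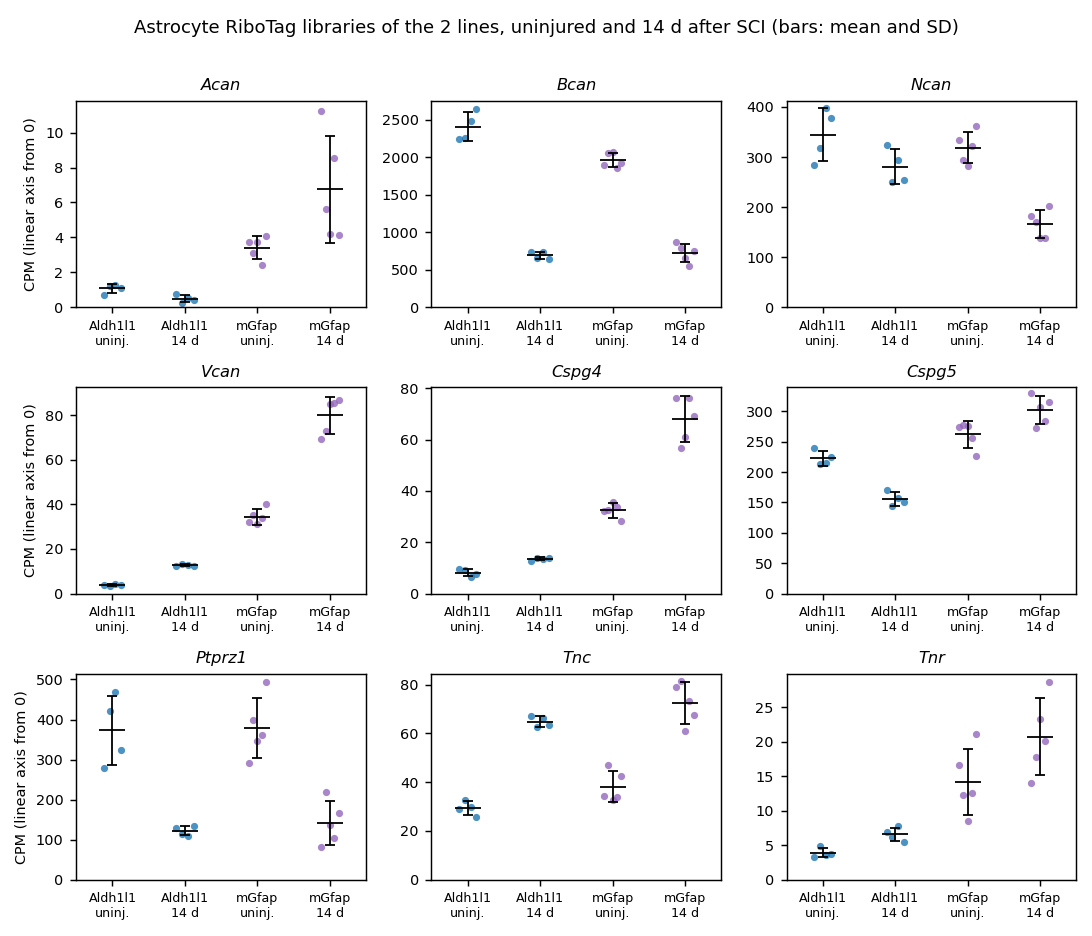
Level of each member in CPM (linear axis from 0) in astrocyte libraries of the Aldh1l1 and mGfap lines, uninjured and at 14 d after SCI; points are libraries, bars the mean and SD. Vcan, Cspg4 and Acan sit higher in mGfap than in Aldh1l1 astrocyte libraries, in both conditions.

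Both Cre lines gave the same direction for Bcan, Ptprz1, Vcan, Cspg4 and Tnc at 14 d. In mGfap astrocyte libraries Bcan was 1861 to 2074 CPM uninjured and 557 to 868 injured (2.51-fold lower), and Ptprz1 fell 2.50-fold. Vcan rose from 31.2 to 40.1 to 69.2 to 86.7 CPM (2.50-fold), Cspg4 from 28.1 to 35.7 to 56.6 to 76.4 CPM (2.26-fold) and Tnc from 32.7 to 46.9 to 60.9 to 81.7 CPM (2.05-fold), none with overlap. Ncan fell (-0.83), and Cspg5 rose (0.31, adjusted p = 0.0022) where it fell in the Aldh1l1 line. With DESeq2's size factors in edgeR the Cspg5 rise was 0.24 (adjusted p = 0.013), no longer called. In all 8 members were called, with 44.2% of 17848 genes, whose median change was 0.17. Acan (1.09, adjusted p = 0.0047) was lost with the block (1.04, adjusted p = 0.012), with labelled sex as a covariate (1.16, adjusted p = 0.037) and without injured replicate 1 or 4 or uninjured replicate 2 or 4 (0.83 to 1.06, adjusted p = 0.013 to 0.018). Tnr (0.65, adjusted p = 0.014) was called with the block (0.67, adjusted p = 0.0072) and without injured replicate 1 (0.77, adjusted p = 0.0039) or uninjured replicate 5 (0.84, adjusted p = 0.0023).

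Uninjured mGfap astrocyte libraries held 8.83-fold more Vcan (3.14 ± 0.11), 3.86-fold more Cspg4, 3.54-fold more Tnr and 3.05-fold more Acan than Aldh1l1 ones, and no other member differed at a call (4 of 9, against 12.4% of genes). At 14 d the lines differed in 6 members (23.3% of genes), among them Acan at 4.17 to 11.2 CPM against 0.269 to 0.778 (14.0-fold), Vcan (6.55-fold), Cspg4 (5.23-fold), Tnr (3.30-fold) and Cspg5 (2.02-fold), with Ncan lower (-0.69). Oligodendrocyte markers summed to 5813 to 8215 CPM in mGfap against 1990 to 3480 in Aldh1l1 astrocyte libraries uninjured, and to 11298 to 18673 against 1193 to 1370 at 14 d. Progenitor markers summed to 1519 to 1816 against 1308 to 1710 uninjured, which overlapped, and to 1922 to 2823 against 381 to 461 at 14 d. The part of either cell type in these differences was not tested. The change at 14 d differed between the lines in Acan (2.20 ± 0.47, adjusted p = 0.0021) and Cspg5 (0.82 ± 0.12, adjusted p = 4.5e-05), 2 members where 12.7% of genes were called. The median of all genes was 0.11. With labelled sex as a covariate the Acan difference between the lines was 1.54 uninjured (adjusted p = 0.025) and that of the change 2.27 (adjusted p = 0.011), no longer called. Bcan (0.46, adjusted p = 0.032) was also called without mGfap 14 d replicate 4 (0.54, adjusted p = 0.0051). Ncan (-0.54, adjusted p = 0.039) was called without Aldh1l1 uninjured replicate 3 (-0.77, adjusted p = 0.0068), and Vcan (-0.43, adjusted p = 0.031) without Aldh1l1 14 d replicate 3 or uninjured replicate 3 or 4 (-0.62 to -0.58, adjusted p = 0.0053 to 0.0090).

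In mGfap flow-through at 14 d, Tnc rose from 2.22, 3.83, 2.49, 2.49 and 3.43 CPM to 43.3, 23.4, 24.1, 39.7 and 21.3 CPM (10.6-fold) and Cspg4 4.27-fold. There Bcan, Ncan, Cspg5, Ptprz1, Acan and Tnr fell, so that 8 members were called against 66.0% of 18838 genes. The Acan call (-0.93, adjusted p = 0.0032) was lost with labelled sex as a covariate (-0.98, adjusted p = 0.016). Vcan there (-0.32, adjusted p = 0.017) passed without 14 d replicate 4 (-0.38, adjusted p = 0.0063). Astrocyte and flow-through libraries of these injured mice differed in 7 members (46.9% of genes), all higher in the astrocyte library. Against Aldh1l1 flow-through, uninjured libraries differed in Vcan alone (0.71; 8.71% of genes), a call lost with labelled sex as a covariate (0.64, adjusted p = 0.033). At 14 d mGfap flow-through was lower in 5 members (1.48% of genes): Bcan (-1.38), Ncan (-1.50), Vcan (-1.03), Cspg5 (-1.03) and Ptprz1 (-1.14, adjusted p = 0.0095). The last was lost with the block (-1.16, adjusted p = 0.011), with labelled sex as a covariate (-1.14, adjusted p = 0.015) and without any one of the 4 Aldh1l1 14 d libraries or mGfap 14 d replicates 1, 3, 4 or 5 (-1.19 to -0.997, adjusted p = 0.019 to 0.037). In mGfap flow-through at 14 d progenitor markers summed to 389 to 501 CPM against 950 to 1175 in Aldh1l1, and astrocyte markers to 1852 to 2795 against 3168 to 4401. Neuron markers (592 to 3221 against 1122 to 1694) and myeloid markers (5693 to 17969 against 7396 to 9220) overlapped. The part of these cells was not tested. The change differed between the lines in 4 members (4.58% of genes), Bcan (-1.43), Ncan (-2.02), Vcan (-1.74) and Ptprz1 (-1.66, adjusted p = 0.0042). The Ptprz1 call was lost with labelled sex as a covariate (-1.68, adjusted p = 0.022) and without Aldh1l1 14 d replicate 2, 3 or 4 or uninjured replicate 1 or 4 (-1.65 to -1.49, adjusted p = 0.010 to 0.013). The Cspg5 call (-0.85, adjusted p = 0.025) was gained without mGfap 14 d replicate 4 (-0.69, adjusted p = 0.0032).

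The genes that build, anchor and break down chondroitin sulfate were taken as 65 further genes in 5 lists. Of 23 genes that make chondroitin sulfate chains, 10 rose and 6 fell in astrocyte libraries at 2 d (median log2 change 0.37, against -0.04 over all genes tested), where 60.1% of all genes were called. At 70 d 6 rose and 4 fell (median -0.10), where 45.3% of all genes were called, so the count lay near the background. Those with the largest called changes at 2 d were Dse (2.49 ± 0.26), the epimerase that turns chondroitin into dermatan sulfate, and Chst7 (2.23 ± 0.34), a sulfotransferase counted at 20 to 75 reads in uninjured libraries. Next were Chpf2 (1.87 ± 0.11), a polymerizing factor, and Papss2 (-1.34 ± 0.13), which makes the sulfate donor. At 70 d Xylt1 (-2.21 ± 0.30), which starts the chain on the core protein, and Chst3 (-1.47 ± 0.22), a 6-O-sulfotransferase, were lower, and Dse (2.16 ± 0.26) was still higher. In flow-through at 2 d 13 rose and 3 fell (median 0.67), where 65.6% of all genes were called, led by Papss2 (3.57 ± 0.16) and Chsy1 (3.08 ± 0.15).

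Of 14 genes for hyaluronan and link proteins, 6 rose and 3 fell at 2 d (median 0.81), a count near the 60.1% of all genes called. Has2 (3.98 ± 0.35), a hyaluronan synthase, and Cd44 (3.11 ± 0.11), a hyaluronan receptor, rose with Hmmr (4.26 ± 0.57) and Has1 (3.16 ± 0.87). Hmmr had 0 to 10 and Has1 2 to 26 reads in uninjured libraries. At 42 d the link proteins Hapln1 (-2.57 ± 0.63) and Hapln2 (-2.05 ± 0.41) were lower and Cd44 (1.94 ± 0.11) still higher. Among 12 proteases and enzymes of degradation 6 rose and 3 fell at 2 d (median 0.61; 60.1% of all genes called), led by the lectican-cleaving Adamts5 (2.99 ± 0.18) and Adamts1 (2.92 ± 0.20), while Timp3 (-1.41 ± 0.10), an inhibitor of such proteases, fell. At 5 d 7 rose and 3 fell (median 1.16; 56.8% of all genes called). Among the leading genes were the lysosomal Galns (3.89), Gusb (3.86) and Hexa (2.95). In the same libraries myeloid markers stood at 15778 to 20274 CPM against 51 to 110 uninjured; their part was not tested. In flow-through at 2 d 10 of the 12 rose and 0 fell (median 2.37), where 65.6% of all genes were called, 32.6% higher and 32.9% lower.

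**Figure D5:**
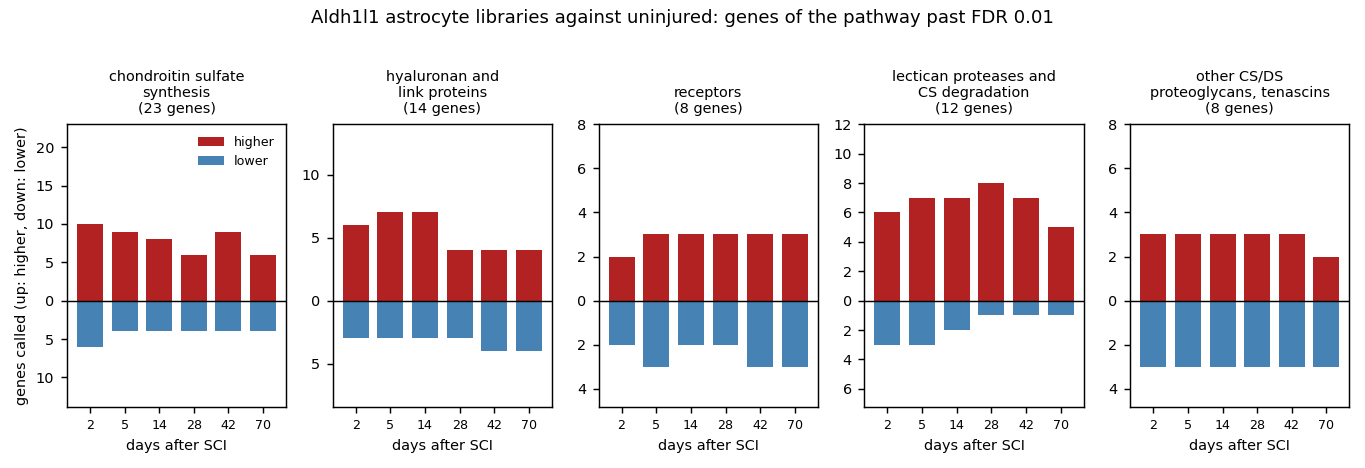
Number of genes of each pathway list called higher (bars above 0) or lower (bars below 0) than uninjured in Aldh1l1 astrocyte libraries at each day after SCI. The synthesis list has 10 higher and 6 lower at 2 d, and 6 higher and 4 lower at 70 d.

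Of 8 receptors for chondroitin sulfate or tenascins, 2 rose and 2 fell at 2 d (median 0.03), below the 60.1% of all genes called. Itgb1 (1.59 ± 0.08) and Itgav (0.72 ± 0.12), integrin chains, rose. Cntn1 (-2.15 ± 0.13), a contactin that binds Ptprz1 and Tnr, and Rtn4rl1 (-1.14 ± 0.22), of the Nogo receptor family, fell. The last was higher at 42 d (1.18 ± 0.23). Of 8 other proteoglycans and tenascins 3 rose and 3 fell (median 0.26; 60.1% of all genes called), with Srgn (4.92), of myeloid granules, and Tnn (4.76; 0 to 13 reads uninjured) higher and Spock3 (-2.58) and Spock2 (-2.22) lower. At P0 against P63, 13 of 22 synthesis genes tested were higher and 7 lower (median 0.66), where 50.2% of all genes were called, 25.1% in each direction, with Chst3 (2.47 ± 0.18) and Chsy1 (2.18 ± 0.16) higher and Chst11 (-2.23 ± 0.13), a 4-O-sulfotransferase, lower. Of the receptors 5 were higher and 2 lower (median 1.12), and of the hyaluronan and link genes 7 were higher and 3 lower (median 1.11), among them Has2 (2.91 ± 0.29) higher and Hapln2 (-7.51 ± 0.35), a link protein of myelinated axons, lower.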

How the data were processed

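RiboTag (70 astrocyte) and flow-through (47) libraries of mouse spinal cord were read from the deposited count tables, 1 per library. Per the submitters' processing notes and the study's methods, the authors ran Trimmomatic, then HISAT2 against mm10 and featureCounts per gene, in Galaxy and the last 2 with default parameters. The deposited values are whole-number read counts of 27179 Entrez genes without normalization, joined by identifier because 18 of 117 files list genes in another order. RefSeq on GRCm38.p6 named 25275 of them and gave coordinates, promoters and exon lengths (union of curated exons, with the union over all models as an alternative chosen after seeing the data). Libraries were grouped by their titles and labels. 1 flow-through library at 5 d is labelled male although its title and its astrocyte library are not, and it was kept with the females.

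Counts were tested in R 4.3.3 with edgeR 4.0.16 (TMM, filterByExpr, quasi-likelihood F test with legacy and robust fitting), with Benjamini-Hochberg adjustment over all genes tested and calls at an adjusted p under 0.01. All groups of a time course, of the ages or of the line comparison shared a fit, astrocyte and flow-through libraries were set against each other in a separate fit per condition, and sexes were compared with time as a covariate. The main fits did not pair the 2 libraries of a mouse, also where both kinds were fitted together for the difference of the changes. Errors of log2 changes are standard errors. CPM and FPKM are display values from 1 TMM scaling over all 117 libraries. Depth was 67253656 to 128400518 counts (astrocyte, median 93933978) and 40710428 to 136008399 (flow-through, median 97467271), and 3 member values rested on 3 counts or fewer.

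The members and gene lists were chosen with earlier results of these data known. All 9 members were tested and counted in every comparison, but some comparisons give only the count and name some or none of those called. Of the other lists, the rule names up to 4 called genes with the largest log2 change. The value of 1 gene that this rule names is not reported here. Genes of like pattern are the 3 with the highest Pearson's r to a member among genes with a mean of at least 1 CPM. In 47 pairs of astrocyte and flow-through library from 1 mouse, deviations from the group means correlated at -0.05 to 0.72 (median 0.27, 37 over 0.1); other pairs had a median of -0.05. Across groups of different mice the same number only names a replicate, so a replicate block there joins different mice and is no pairing. In fits that hold both kinds of library the block is the mouse. The fits were tested on simulated data with 100 genes changed per size: at a log2 change of 1 and 2, 69 and 88 were recovered for astrocytes at 2 d, 73 and 80 for uninjured astrocyte against flow-through libraries, and 53 and 85 for P0 against P63, with 2, 0 and 0 false calls. The changed genes left out those with low mean counts and were raised as often as lowered. No other simulated gene differed between groups. In the real comparisons far more genes were called, so the simulation does not show how the fits behave there or at low counts. Alternatives were DESeq2 1.42.0, its size factors in edgeR, no filter on low counts, a threshold of 0.05, the fit without legacy, labelled sex as a covariate, a replicate block, 2 groups fitted alone and each library left out.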

Additional observations from a re-analysis of the deposited data

Results flagged for a closer look

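Some libraries stood far from the rest of their group by Dixon's test at its 95% critical value, in 9 of 234 groups of 4 or 5 libraries; chance flags about 1 in 20 groups. In astrocyte libraries these were Ncan at 28 d in replicate 3 (144 CPM, others 154 to 156), Vcan at 2 d in replicate 5 (73.2, others 54.7 to 58.4), Vcan in 5 d males in replicate 2 (24.7, others 17.93 to 19.05) and Tnr at P35 in replicate 4 (64.2, others 22.5 to 27.9). In flow-through they were Ncan at 14 d in replicate 3 (60.5, others 43.9 to 46.0), Cspg4 (137, others 108 to 113) and Ptprz1 (7.55, others 17.3 to 18.8) in replicate 3 of the 5 d males, Tnc uninjured in replicate 2 (3.37, others 3.13 to 3.16) and Tnr of mGfap P63 in replicate 5 (6.53, others 2.99 to 4.01).

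The change after SCI differed between astrocyte and flow-through libraries by edgeR's test of the interaction, as log2 change in astrocyte minus flow-through libraries. In order of the 6 times from 2 to 70 d, the difference was -3.15, -3.91, -1.86, -1.20, -1.10 and -0.88 for Bcan. For Ncan it was -2.69, -2.19, -1.56, -1.91, -1.85 and -1.81, for Cspg4 -3.61, -1.27, -1.07, -1.13, -1.25 and -0.88, and for Tnc -1.70, -2.67, -1.60, -1.18, -1.02 and -1.12. For Ptprz1 it was -1.65, -1.13, -0.84, -1.39 and -1.05 in the order of the times from 5 d on, and for Cspg5 -1.03 at 2 d and -0.77 at 5 d. The Acan (-1.71) and Vcan (1.01) changes differed at 2 d alone.

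The change at 14 d differed between the lines by the same kind of test, as mGfap minus Aldh1l1. In astrocyte libraries the difference was 2.20 for Acan and 0.82 for Cspg5, and in flow-through libraries -1.43 for Bcan, -2.02 for Ncan, -1.74 for Vcan and -1.66 for Ptprz1.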

How the results depend on the processing

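Of 6579 values of single members under alternatives, 6329 kept their direction and their side of the threshold, 146 lost a call, 104 gained one and 0 turned a called direction; 77 that were not called changed sign. By setting, values that kept their side numbered 420 of 441 with DESeq2 (2 lost, 19 gained), 434 with its size factors in edgeR, 425 without the legacy fit, 438 without the filter on low counts, 432 with a replicate block (7 lost, 2 gained, each printed beside its result), 404 at a threshold of 0.05, 145 of 153 with labelled sex as a covariate, 99 of 108 with the 2 groups fitted alone, 3505 of 3645 with 1 library or animal left out and 27 of 27 without the flow-through library labelled male. The block changed no other call. The cause of these moves was not tested.

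The number of members called moved by over 1.5 times in 7 comparisons. Between the lines, the change in astrocyte libraries differed in 2 members, against 4 with DESeq2, 5 at a threshold of 0.05, 1 with sex as a covariate and 2 to 4 with 1 library left out. In flow-through libraries at 2 d 8 were called, against 5 with the 2 groups fitted alone. For injured mGfap against P0 5 were called, against 8 at a threshold of 0.05, 3 with the replicate block and 3 to 7 with 1 library left out. At P35 against P63 1 was called, against 2 with DESeq2, 2 at 0.05 and 0 to 1 with 1 library left out, and from P0 to P7 2, against 1 to 3. In uninjured flow-through 1 differed between the lines, against 2 with DESeq2, 2 at 0.05 and 0 with sex as a covariate. The difference between the changes in astrocyte and flow-through libraries at 70 d was called in 5, against 3 to 5 with 1 animal left out.

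Exon lengths over all RefSeq models, chosen after seeing the data, moved the Bcan FPKM and lectican shares as given beside them. The 42 d fall of Acan was not called with the 2 groups fitted alone (-2.05, adjusted p = 0.047). Labelled sex could not be fitted as a covariate for injured against newborn libraries, whose sexes differ wholly.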

Other observations

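Over the mean log2 CPM of the 17 groups of astrocyte libraries, the gene most like each member among 14189 genes, by Pearson's r, was Spns2 for Acan (0.96), Reep1 for Bcan (0.97), Dcaf10 for Ncan (0.98), Zfp57 for Vcan (0.94), Gpr17 for Cspg4 (0.94), Cfap100 for Cspg5 (0.94), Pja2 for Ptprz1 (0.98), Akap8 for Tnc (0.95) and Chn2 for Tnr (0.95). Next came Kndc1 and Pacs2 for Acan, Syt7 and Tmem44 for Bcan, Nsd1 and Polg for Ncan, Map4k4 and Sox11 for Vcan, Mpzl1 and 9630013A20Rik for Cspg4, Atxn7l3b and Dleu7 for Cspg5, Ptprm and Fasn for Ptprz1, Tpbg and Lmnb1 for Tnc, and Sgk2 and Susd5 for Tnr. Gpr17 is in the list of oligodendrocyte progenitor markers. The 17 groups pool ages, lines, sexes and times after SCI, and the values describe likeness of pattern and carry no test.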
